A study of Mus musculus with 4 samples.

Results

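Mature oligodendrocyte and myelin genes were described in the medial prefrontal cortex (mPFC) of stressed and unstressed mice, a region at the front of the neocortex. The set held 33 genes, taken by gene symbol from a list. The list held structural myelin proteins, enzymes of myelin lipid synthesis and other genes that oligodendrocytes express. Some of these, such as Trf, Car2, Apod and Cryab, were taken as expressed by other cell types too. All 33 were found among the 17778 genes of the table, and all 33 reached the minimum level of 0.5 RPKM in at least 1 group, which 14257 genes reached. RPKM counts the reads of a gene relative to its length and to the library total, so that levels may be compared between genes.

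Messenger RNA was sequenced in 4 libraries from male mice of the inbred strain C57BL/6 (C57BL/6J in the study's methods). The mice were juvenile when the study's procedure began, and tissue was taken weeks later, so that they were older by then. The CUMS group (2 libraries) came from mice that had lived under chronic unpredictable mild stress, a schedule of social isolation, restraint, tilted or damp cages, noise, strobe light and shifted light cycles, and that had then met the study's criteria for depression-like behavior in all of its behavioral tests. The control group (2 libraries) came from mice that were not stressed, and tissue from both hemispheres was taken in both groups. Stressed mice that did not meet the criteria were not sequenced, so that CUMS here means stressed mice selected by behavior, and the sources used here do not state whether 1 library is 1 mouse.

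The table held the authors' mean RPKM of each group and no value of a single library. No difference could therefore be set against the spread between libraries, no test was made, and the words lower and higher below refer to the 2 means. Each log2 ratio of CUMS over control is given with an exact Clopper-Pearson 95% interval from the estimated number of sequenced fragments. These intervals cover counting error only, and they assume equal depth within a group. The depth estimated from the steps of low values was 8403361 fragments for a control library and 8474576 for a CUMS library. This is lower than the read numbers of the study, a difference that was not resolved.

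Oligodendrocytes wrap axons of the central nervous system in myelin, a stack of membrane layers that speeds conduction. The layers are held together by a few very abundant proteins, are rich in galactolipids, and stay connected to the cell body through channels of cytoplasm. Oligodendrocytes form from dividing precursors, pass through a newly formed stage and then switch on the myelin genes, a step that needs the transcription factors Sox10 and Myrf. Myelination of the mouse frontal cortex continues through juvenile life.

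The myelin genes were lower in CUMS with few exceptions. The mean was lower in 30 of the 33 genes (90.9%), whereas 53.2% of all genes past the minimum level were lower. The median log2 ratio of the 33 genes was -0.33, beside -0.02 over all genes past the minimum, and single genes ranged from -1.08 to 0.10. A mean more than 1.5 fold lower, the fold limit of the study, was found in 9 of the 33 genes and in 4.42% of all genes. The study also set a limit on a probability of difference, which was not applied here. A mean more than 1.5 fold higher was found in 0 of the 33 and in 2.78% of all genes. The counting interval lay wholly under 0 in 23 genes, held 0 in 9 and lay over 0 in 1, and 17.9% of all genes had an interval under 0. In tissue RNA, fewer oligodendrocytes, less RNA per oligodendrocyte and another mix of cells or regions cannot be told apart. Markers of neocortical excitatory neurons (median log2 ratio 0.32) and of striatal projection neurons (-0.28) also differed, as given below.

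The same direction was seen among genes of higher level, and 4 of the 9 genes past the fold limit lay under that level. A mean of both groups of at least 5 RPKM was reached by 27 of the 33 genes and by 9186 genes in all. Of these 27 genes, 24 were lower, against 52.2% of all genes at that level, and their median log2 ratio was -0.31. The mean was more than 1.5 fold lower in 5 of the 27, against 0.958% of all genes at that level, and the interval lay under 0 in 19 of the 27, against 20%. The 6 genes under this level were Klk6, Anln, Ermn, Gjb1, Tmem125 and Aspa, of which the first 4 were more than 1.5 fold lower. Across the 33 genes the log2 ratio showed little relation to the log2 control level (Pearson's r = 0.14, Spearman's rho = -0.002) and a weak one to gene length (r = -0.23, rho = -0.13). These correlations are across genes of the same libraries and are given as a description.

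**Figure D1:**
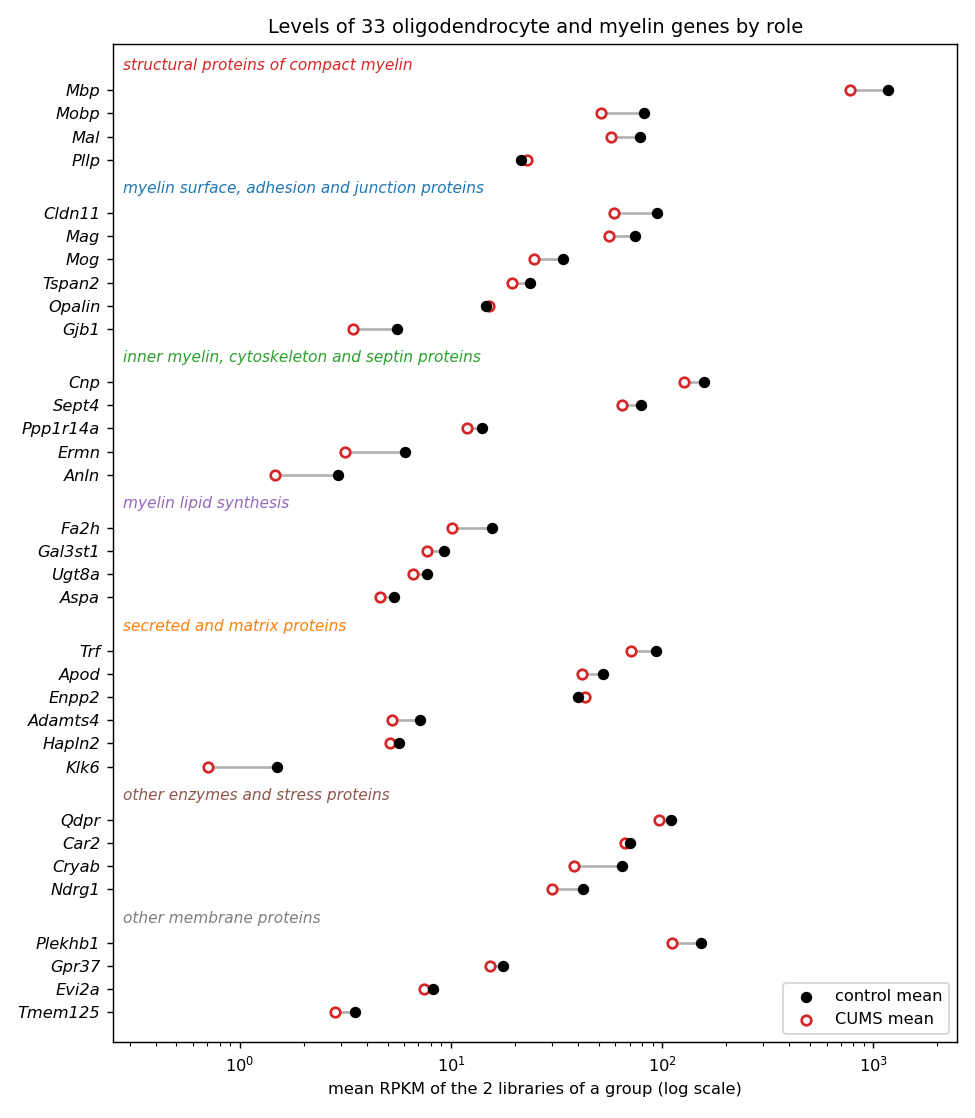
Mean RPKM of each of the 33 genes in control (filled points) and CUMS (open points) on a log axis, with genes grouped by role. Each point is the mean of 2 libraries and has no error bar because no single-library values were held; the CUMS point lies left of the control point in 30 genes and right of it in Opalin, Pllp and Enpp2.

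The genes together held a smaller part of the transcript pool in CUMS. Their levels summed to 2563 RPKM in the control group and to 1854 RPKM in the CUMS group, a log2 ratio of the sums of -0.47. They made up 0.662% of all RPKM in control and 0.477% in CUMS. Mbp dominated this sum, with 45.5% of it in control and 41.8% in CUMS, and it accounted for 55.4% of the summed difference. The other 32 genes were also lower together, with sums of 1396 RPKM in the control group and 1080 RPKM in the CUMS group (log2 ratio of the sums -0.37).

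The order of the levels was nearly the same in both groups. Ranked by mean RPKM, 17 genes held the same rank, and the largest shift was of 5 ranks, by Car2 from 11 to 6. Spearman's rho between the 2 groups' levels over the 33 genes was 0.985. The plot of levels by role shows this as pairs of points that lie close together on an axis along which the genes are widely spread.

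Genes of compact myelin, the tightly packed layers, had the highest median level of the 7 roles and a median log2 ratio of -0.53. Mbp encodes myelin basic protein, which binds the inner faces of the membrane layers together. It stood at 1167 RPKM in control and 774 RPKM in CUMS, 33.7% lower, with a log2 ratio of -0.59 (interval -0.61 to -0.57). In control it was the gene of rank 9 of the whole table. Mbp lay just inside the fold limit at 1.51 fold, and outside it once all ratios were scaled to a median log2 ratio of 0, and Ndrg1, the next gene outside it, lay at 1.40 fold. Mobp, a small basic protein of the same compartment, stood at 82.2 RPKM in control and 51.5 in CUMS (log2 ratio -0.68, interval -0.75 to -0.60). Mal, a proteolipid that takes part in sorting proteins into myelin membrane, stood at 78.2 and 56.9 RPKM (log2 ratio -0.46). The remaining gene of the group differed: Pllp, plasmolipin, stood at 21.5 RPKM in control and 22.9 in CUMS, and its interval held 0 (log2 ratio 0.09, interval -0.06 to 0.25).

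Proteins of the myelin surface and of junctions were lower in 5 of 6 genes, with a median log2 ratio of -0.43. Cldn11, the claudin of the tight junctions between myelin layers, stood at 94.0 RPKM in control and 58.8 in CUMS (log2 ratio -0.68, interval -0.76 to -0.59). Gjb1, the gap junction protein connexin 32, was much less abundant, at 5.55 and 3.42 RPKM, and was lower by a similar log2 ratio of -0.70 with a wider interval of -1.11 to -0.30. Mag, an adhesion protein of the layer that faces the axon, stood at 74.4 and 56.2 RPKM. Mog, which lies on the outermost layer, stood at 33.9 and 24.8 RPKM. The log2 ratios of Mag (-0.40) and Mog (-0.45) were thus close to each other although the proteins lie on opposite sides of the sheath. The tetraspanin gene Tspan2 stood at 23.7 and 19.5 RPKM, a smaller log2 ratio of -0.28. Opalin, a transmembrane glycoprotein of oligodendrocytes, had near equal means of 14.7 RPKM in control and 15.1 in CUMS (log2 ratio 0.04, interval -0.25 to 0.32).

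All 5 genes of the inner layers, the cytoskeleton and septins were lower, and they held both small and large ratios. Cnp, whose product keeps the cytoplasmic channels of myelin open, held rank 2 of the 33 genes with 158 RPKM in control and 127 in CUMS (log2 ratio -0.31, interval -0.37 to -0.26). Sept4, a septin (Septin4 in current annotation), stood at 79.6 and 64.4 RPKM, at the same log2 ratio of -0.31. Anln encodes anillin, a scaffold on which septins assemble, and it was much lower: 2.92 RPKM in control against 1.47 in CUMS (log2 ratio -0.99, interval -1.30 to -0.69). Ermn encodes ermin, an actin-binding cytoskeletal protein found in myelinating oligodendrocytes. It stood at 6.05 RPKM in control and 3.16 in CUMS (log2 ratio -0.94, interval -1.20 to -0.68). Ppp1r14a, an inhibitor of protein phosphatase 1, stood at 14.0 and 11.9 RPKM, and its interval held 0.

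The 4 genes of myelin lipid synthesis were all lower, mostly by small ratios. Fa2h, the fatty acid hydroxylase that gives myelin galactolipids their hydroxylated tails, was the exception at 15.7 RPKM in control and 10.1 in CUMS (log2 ratio -0.64, interval -0.82 to -0.46). Ugt8a makes galactosylceramide, and Gal3st1 turns that lipid into sulfatide. Ugt8a stood at 7.67 and 6.58 RPKM (log2 ratio -0.22) and Gal3st1 at 9.27 and 7.72 RPKM (log2 ratio -0.26). Aspa, which frees acetate from N-acetylaspartate, stood at 5.36 and 4.58 RPKM (log2 ratio -0.23). The intervals of Gal3st1 and Aspa held 0, and the interval of Ugt8a ended just under it at -0.02.

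Secreted and matrix proteins spanned the whole range of ratios, from the lowest of the 33 genes to the highest. Klk6, a secreted serine protease, was the least abundant gene at 1.495 RPKM in control and 0.705 in CUMS. Its log2 ratio of -1.08 rested on about 32.1 and 15.2 fragments per group and had the widest interval, from -2.07 to -0.16. With a pseudocount of 1 RPKM added to both means it was -0.55, which is less than 1.5 fold lower. Enpp2, autotaxin, a secreted enzyme that makes lysophosphatidic acid, stood at 40.0 RPKM in control and 42.9 in CUMS and was the only gene of the 33 with an interval over 0 (log2 ratio 0.10, interval 0.01 to 0.18). Between them lay Adamts4, a matrix protease, at 7.14 and 5.24 RPKM (log2 ratio -0.45), Trf, the iron carrier transferrin, at 93.8 and 71.4 RPKM (-0.39), and Apod, apolipoprotein D, at 52.6 and 41.7 RPKM (-0.33). Hapln2, a link protein of the matrix at nodes of Ranvier, stood at 5.69 and 5.14 RPKM, and its interval held 0.

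The remaining 8 genes were all lower. Cryab, the small heat shock protein alpha B crystallin, stood at 64.7 RPKM in control and 38.1 in CUMS (log2 ratio -0.76, interval -0.90 to -0.63). Plekhb1, a membrane-associated protein with a pleckstrin homology domain, held rank 3 in level at 152 and 111 RPKM (log2 ratio -0.46, interval -0.53 to -0.40). Qdpr, the enzyme that regenerates tetrahydrobiopterin, held rank 4 at 110 and 96.6 RPKM and was lower by much less (log2 ratio -0.19, interval -0.28 to -0.11). Ndrg1, a stress-responsive gene, stood at 42.2 and 30.1 RPKM (log2 ratio -0.49). Car2, carbonic anhydrase 2, was nearly level at 70.4 and 66.3 RPKM, with an interval that just held 0. Gpr37, an orphan receptor of the membrane, stood at 17.6 and 15.4 RPKM (log2 ratio -0.20). Evi2a (8.17 and 7.42 RPKM) and Tmem125 (3.51 and 2.81 RPKM), both membrane proteins, had intervals that held 0.

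**Figure D2:**
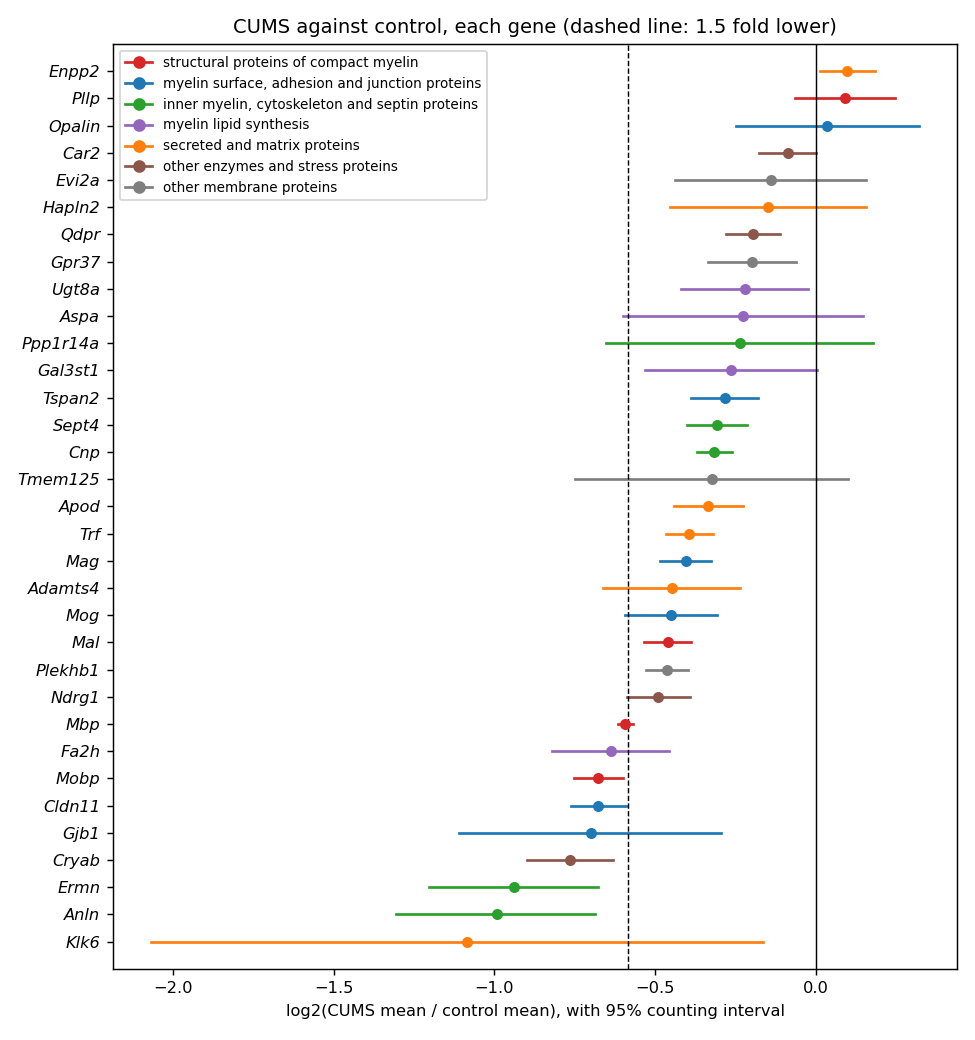
Log2 ratio of CUMS over control for each of the 33 genes, in order, with bars for 95% counting intervals that leave out the spread between mice. Colours give the role, the solid line marks equal means and the dashed line 1.5 fold lower. The intervals of Anln, Ermn, Cryab, Cldn11 and Mobp lie wholly beyond the dashed line, and how common this is among all genes was not counted.

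The genes more than 1.5 fold lower came from 6 of the 7 roles. In order of log2 ratio they were Klk6, Anln, Ermn, Cryab, Gjb1, Cldn11, Mobp, Fa2h and Mbp. The whole counting interval lay beyond 1.5 fold in Anln, Ermn, Cryab, Cldn11 and Mobp. How common such an interval is among all genes was not counted. They ranged in level from the least abundant of the 33 genes to the most abundant.

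**Figure D3:**
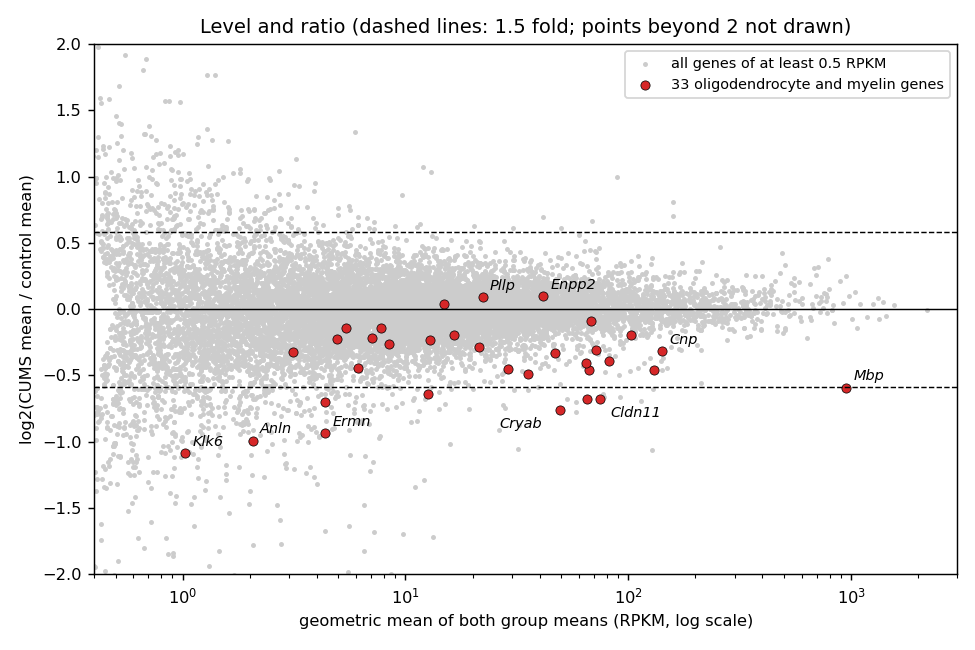
Log2 ratio against mean level (geometric mean of both groups, RPKM, log axis) for all genes that reached 0.5 RPKM (grey) and the 33 genes (red), with dashed lines at 1.5 fold. The red points lie mostly under 0 along the whole range of levels, and Mbp lies apart at the right.

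The annotated spans of the 9 genes more than 1.5 fold lower, in the RefSeq annotation of the mouse build GRCm38.p6, the build named mm10 in the submitters' notes, were as follows. Mbp lies on chromosome 18 from 82475091 to 82585637, and Cldn11 on chromosome 3 from 31149920 to 31164326. Mobp, Cryab and Anln lie on chromosome 9, from 120149742 to 120181488, from 50745951 to 50756636 and from 22331214 to 22389211. Ermn lies on chromosome 2 from 58045115 to 58052864, and Fa2h on chromosome 8 from 111345138 to 111393821. Klk6 lies on chromosome 7 from 43824438 to 43832027, and Gjb1 on the X chromosome from 101376376 to 101385629. The spans of 10 of the 33 genes overlap another annotated gene: Anln, Cryab, Mbp, Adamts4, Cnp, Tspan2, Gal3st1, Aspa, Ugt8a and Evi2a. The use of strand in counting was not given in the sources used here, so that reads of these genes and of their overlapping neighbours may not have been told apart.

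Promoter sequence was read from RefSeq windows of 300 bases (250 before the start of a gene to 50 after it, GRCm38.p6), which were held for 24 of the 33 genes as 37 windows. No window was used for Adamts4, Car2, Cryab, Enpp2, Evi2a, Fa2h, Mbp, Ndrg1 and Trf. The letters ACAAAG, a core of SOX factor motifs, were found on either strand in 12 of the 37 windows (32.4%), against 18.7% of all 32851 windows. The letters CTGGCAC, a core of the MYRF motif, were found in 6 windows (16.2%), against 5.01% of all windows. Counted by gene, the SOX letters were in windows of 10 of the 24 genes (41.7%, against 21% of all 27025 genes with a window), namely Apod, Cnp, Gjb1, Klk6, Mag, Mobp, Opalin, Plekhb1, Sept4 and Tspan2. The MYRF letters were in windows of 5 genes (20.8%, against 5.73%), namely Cnp, Hapln2, Mag, Opalin and Tmem125, and Cnp, Mag and Opalin thus held both. Windows of 1 gene can overlap, as those of Mag do, and a match of letters is not a bound site.

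Of the other letters searched, TATAAA was less common in these windows than elsewhere, CAGCTG was about as common, and CCAAT and GGGCGG were somewhat more common. The E-box CAGCTG was in 16.2% of the windows and in 16.3% of all windows, and the letters CCAAT were in 45.9% and 37.4%. The GC box GGGCGG, whose matches can overlap each other, was in 40.5% and 35.7%. The letters TATAAA were in 2 windows (5.41%), those of Aspa and Gjb1, and in 13.6% of all windows.

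The windows of the 3 genes with both SOX and MYRF letters and that of Mobp, which held 6 SOX matches, are given here, 5′ to 3′ on the strand of the gene, with these letters and their reverse complements in capitals. They span a range of ratios, from Mobp (log2 ratio -0.68) over Mag (-0.40) and Cnp (-0.31) to Opalin (0.04).
Mobp chr9:120149492-120149791 plus strand: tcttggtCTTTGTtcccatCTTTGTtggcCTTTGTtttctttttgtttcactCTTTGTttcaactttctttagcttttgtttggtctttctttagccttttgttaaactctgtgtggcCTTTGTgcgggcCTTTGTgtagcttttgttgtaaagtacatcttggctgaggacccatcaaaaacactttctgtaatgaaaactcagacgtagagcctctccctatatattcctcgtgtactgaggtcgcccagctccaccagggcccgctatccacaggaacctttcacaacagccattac
Mag chr7:30914814-30915113 minus strand: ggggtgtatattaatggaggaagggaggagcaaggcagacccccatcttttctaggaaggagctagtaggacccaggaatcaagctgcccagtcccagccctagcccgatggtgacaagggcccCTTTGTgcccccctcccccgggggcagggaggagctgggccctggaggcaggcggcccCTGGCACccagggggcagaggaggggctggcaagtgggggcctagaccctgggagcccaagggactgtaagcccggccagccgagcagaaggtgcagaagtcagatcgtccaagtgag
Cnp chr11:100574689-100574988 plus strand: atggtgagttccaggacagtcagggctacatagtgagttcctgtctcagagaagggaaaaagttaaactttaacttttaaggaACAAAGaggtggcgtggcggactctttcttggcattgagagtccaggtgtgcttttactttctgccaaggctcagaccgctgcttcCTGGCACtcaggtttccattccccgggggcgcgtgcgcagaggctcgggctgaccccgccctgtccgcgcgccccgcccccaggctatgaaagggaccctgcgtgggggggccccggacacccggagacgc
Opalin chr19:41077064-41077363 minus strand: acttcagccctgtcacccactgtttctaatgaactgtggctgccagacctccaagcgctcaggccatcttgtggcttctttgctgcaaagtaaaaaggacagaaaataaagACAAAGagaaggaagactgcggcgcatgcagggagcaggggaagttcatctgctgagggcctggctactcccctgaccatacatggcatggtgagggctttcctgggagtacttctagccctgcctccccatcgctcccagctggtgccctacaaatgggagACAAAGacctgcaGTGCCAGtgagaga

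In Mobp the 6 SOX matches lay on the reverse strand between 243 and 120 bases before the start. In the Mag window shown, the SOX match began 126 bases and the MYRF match 68 bases before the start. From another annotated Mag start the same matches lay 67 and 9 bases before it, and the window of yet another Mag start held neither. In Cnp these positions were 167 and 81 bases. Opalin held 1 SOX match 139 bases before the start and another 24 bases after it, followed by the MYRF letters on the reverse strand at 37 bases. The window of Opalin, which was not lower in CUMS, held the same letters as those of Mag and Cnp. Of the genes more than 1.5 fold lower, Klk6, Gjb1 and Mobp held SOX letters in a window. Anln, Ermn and Cldn11 held neither SOX nor MYRF letters, and no window was used for Mbp, Cryab and Fa2h. A relation between the letters and the ratios was not tested.

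Other genes of mature oligodendrocytes, which are not among the 33, were lower in 21 of 28 cases with a median log2 ratio of -0.25, and 17 had an interval under 0. Among its abundant genes, Tppp stood at 122 RPKM in control and 133 in CUMS, and Sirt2 at 93.2 and 84.5 RPKM. No gene of this list was more than 1.5 fold apart. General enzymes of sphingolipid and galactolipid metabolism, which many cell types use, were lower in 7 of 14 cases with a median of 0.01. Among them Psap stood at 822 and 818 RPKM, Smpd1 at 62.9 and 63.7 RPKM and Degs1 at 37.9 and 34.1 RPKM.

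The transcription factors of the lineage were likewise lower in CUMS. All 11 that reached the minimum level were lower, with a median log2 ratio of -0.33, and 8 had an interval under 0. Nkx6-2, a homeodomain factor of oligodendrocytes, was more than 1.5 fold lower at 9.27 RPKM in control and 5.07 in CUMS (log2 ratio -0.87, interval -1.16 to -0.59). Olig1 stood at 68.8 and 54.9 RPKM, Zfp488 at 32.9 and 29.0 RPKM and Carhsp1 at 25.6 and 20.1 RPKM. Sox10 (23.2 and 15.6 RPKM) and Myrf (11.4 and 8.88 RPKM) are named because their motifs were searched, with their values already seen. St18 was under the minimum level.

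Of the earlier stages of the lineage, the newly formed one was mostly lower and the precursor one was mixed. Of 12 genes of newly formed oligodendrocytes 9 were lower (75%), the same share as among the other genes of mature oligodendrocytes. Their median log2 ratio was -0.21, and 4 had an interval under 0 and 1 over it. Fyn stood at 38.5 and 36.8 RPKM, Bcas1 at 31.8 and 24.6 RPKM and Gpr17 at 22.1 and 17.0 RPKM. Enpp6, at 0.99 and 0.60 RPKM, was more than 1.5 fold lower. Of 12 genes of oligodendrocyte precursors 5 were lower, with a median of 0.09, and 3 had an interval under 0 and 1 over it. The most abundant of these, Cacng4, stood at 17.0 and 15.2 RPKM, Ptprz1 at 13.9 and 11.1 RPKM and Xylt1 at 9.96 and 10.5 RPKM. The difference between the stages was not tested.

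**Figure D4:**
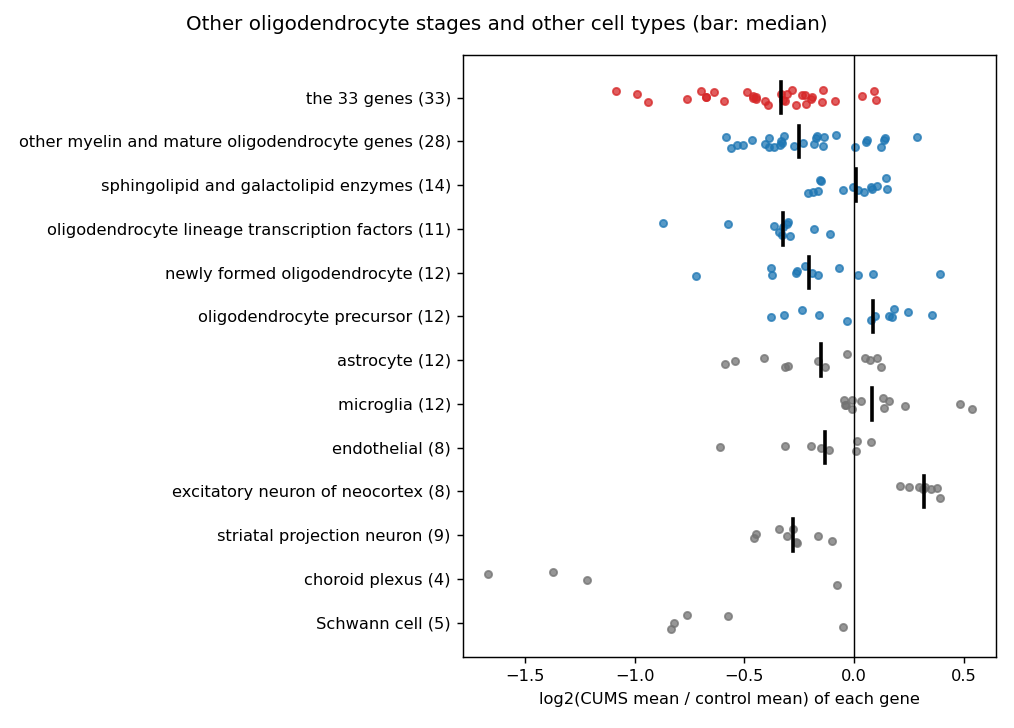
Log2 ratio of each gene (points) and the median (bars) for the 33 genes (red), for other genes of the oligodendrocyte lineage and of lipid synthesis (blue) and for other cell types (grey), with the number of genes past the minimum level in brackets and no bar for choroid plexus and Schwann cell, where Otx2, Sostdc1 and Ncmap passed the minimum in control only. The medians of the 33 genes and the lineage transcription factors both lie at -0.33, the precursor genes at 0.09 and the excitatory neuron genes at 0.32.

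Markers of other cells and of neighbouring regions also differed between the groups, and their part in the differences of the myelin genes was not tested. All 8 markers of excitatory neurons of the neocortex were higher in CUMS, with a median log2 ratio of 0.32 and a range of 0.21 to 0.39, and their summed level was 2251 RPKM in control and 2768 in CUMS. Camk2a stood at 828 and 958 RPKM, Nrgn at 692 and 900 RPKM and Slc17a7 at 635 and 791 RPKM. All 9 markers of striatal projection neurons were lower, with a median of -0.28 and a range of -0.46 to -0.10, and their summed level was 556 and 458 RPKM. Ppp1r1b stood at 191 and 170 RPKM, Penk at 166 and 121 RPKM and Tac1 at 50.5 and 47.0 RPKM. Drd2 and Adora2a, also in this list, were detected in both groups.

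Astrocyte markers were lower in 8 of 12 cases with a median log2 ratio of -0.15. Aldoc stood at 491 and 438 RPKM, Atp1b2 at 188 and 152 RPKM and Slc1a2 at 169 and 175 RPKM, while Fgfr3 was more than 1.5 fold lower at 48.2 and 32.0 RPKM. Microglia markers were lower in 5 of 12 cases with a median of 0.08, with C1qa at 43.9 and 44.8 RPKM and C1qb at 43.8 and 42.5 RPKM. Endothelial markers were lower in 5 of 8 cases with a median of -0.13. Ly6c1 stood at 41.6 and 37.5 RPKM, Slco1a4 at 10.4 and 11.03 RPKM and Cldn5, more than 1.5 fold lower, at 38.1 and 24.96 RPKM.

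Markers of choroid plexus, which also expresses Enpp2, were low in both groups and differed in both directions. Clic6 stood at 3.225 and 1.245 RPKM and Kl at 0.93 and 0.88 RPKM. Otx2 (0.685 and 0.215 RPKM) and Sostdc1 (0.50 and 0.215 RPKM) reached the minimum level in control only, so that no count or median is given. The other 4 were under the minimum in both groups: the defining marker Ttr at 0.055 and 0.01 RPKM, F5 at 0.055 and 0.035 RPKM, Folr1 at 0.24 and 0.29 RPKM and Kcnj13 at 0.01 and 0.415 RPKM, where 0.01 is the listed value that stands for 0. Among markers of Schwann cells, which make peripheral myelin with some of the same genes, Sox10 is shared with the oligodendrocyte lineage. Egr2, which neurons also express, stood at 8.54 and 4.78 RPKM and Cdh19 at 1.26 and 0.74 RPKM, each more than 1.5 fold lower, and Prx at 0.56 and 0.54 RPKM. Ncmap, at 0.575 and 0.325 RPKM, reached the minimum in control only, and Dhh, at 0.11 and 0.135 RPKM, in neither group.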

How the data were processed

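Poly(A) RNA of 2 control and 2 CUMS libraries was sequenced as paired reads. The authors trimmed the reads with SolexaQA, aligned them to mm10 with TopHat 1.0.12 and Bowtie 0.11.3 (versions from the submitters' processing notes), allowing up to 3 mismatches, counted uniquely aligned reads per gene and deposited the mean RPKM of each group. Neither the annotation nor any use of strand is given in the sources used here. The authors' own log2 ratios, directions and NOISeq probabilities, also in the table, were not used.

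Ratios of the 2 means were computed for genes that reached 0.5 RPKM in at least 1 group (Python 3.11.15, pandas 2.3.3, scipy 1.17.1). A mean listed at 0.01, which stands for 0, was used as deposited and left out of the depth fit. The value of 1 fragment was fitted on low values of genes under 1500 bases, with 70 bases taken off each length. Within a tolerance of 0.15, 94.7% of 780 control and 94.4% of 779 CUMS low values were whole fragments. The interval calculation was tested on simulated data.

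The members and comparison lists were chosen with earlier results of these data known. Full values were given for members more than 1.5 fold apart, for the 5 of highest control level and for those higher in CUMS. Of each other list, the 3 genes of highest control level and any gene more than 1.5 fold apart were named, except for some genes that are not reported here, and Sox10, Myrf, Drd2, Adora2a, St18 and the choroid plexus and Schwann cell markers of low level were named after their values were seen. Alternatives were other minimum levels, scalings, pseudocounts, fold limits and subsets of members, and 2 other fits of the depth.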

Additional observations from a re-analysis of the deposited data

How the results depend on the processing

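No paired analysis was possible because single libraries have no values of their own here, although the labels give both groups the replicate numbers 1 and 2, and leaving out each replicate could not be run for the same reason. The median log2 ratio of the 33 genes stayed between -0.34 and -0.31 under other minimum levels, scalings, pseudocounts and subsets of members, the share of genes lower in CUMS between 88.9% and 91.7%, and 0 genes changed sign under either scaling or either pseudocount. The count of genes more than 1.5 fold lower was 9 as reported. It was 8 with the CUMS values scaled to a median log2 ratio of 0, where Mbp fell outside the limit, 7 with a pseudocount of 1 RPKM or at a minimum of 5 RPKM in either group, 5 of 27 where the mean of both groups was at least 5 RPKM, and 5 of 29 without Mbp, Mobp, Cldn11 and Cryab, which the study lists. By construction it was 18 at a fold limit between 1 and 1.5 and 1, Klk6, at a fold limit of 2. The count more than 1.5 fold higher was 0 in all of these. With a pseudocount of 1 RPKM the log2 ratio of Klk6 was -0.55 in place of -1.08, and that of Anln was -0.67 in place of -0.99. The count of 23 intervals under 0 was the same under 2 other fits of the depth, and the comparison lists kept the direction of their medians under both scalings. The minimum on the mean of both groups, the other fits of the depth and the scalings of the comparison lists were chosen after seeing the data. The scalings moved all ratios by 0.02 or less (log2). With 1 mean per group, the spread between mice is unknown, and none of these alternatives measures it.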
